A study of Mus musculus with 24 samples.

Results

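The experiment was a knockdown of Cebpb, the gene of the transcription factor C/EBPβ, in cultures from epididymal white fat (eWAT) of control mice. It was defined by its labels as the 3 libraries with siRNA against Cebpb (eWAT Cont siCEBPb) and the 3 libraries with siNS (eWAT Cont siNS), which makes 6 of the 24 libraries of the series. The name siNS is not explained in the labels. Both groups came from Senp2flox/flox mice, in which the gene of SENP2, a protease that removes the small protein SUMO from other proteins, is flanked by loxP sites; the labels give no Cre for these mice. The other 18 libraries hold the same siRNA pair in iWAT Cont cultures, from inguinal fat of the same genotype, and in eWAT and iWAT aKO cultures, from Senp2flox/flox mice that also carry Adipoq Cre. The promoter of Adipoq, the adiponectin gene, drives that Cre, so it acts as cells mature into adipocytes and not in their precursors.

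In all 8 groups, cells of the stromal vascular fraction, the mixture of precursor, vascular and immune cells left when fat cells are removed, were grown in 10% serum. Fat cell formation was induced for 2 days with dexamethasone, 0.5 mmol/l IBMX and 0.1 mg/ml insulin, followed by 5 days in 1 µg/ml insulin, per the labels' protocols. The libraries of the experiment held RNA of macrophage, contractile and mitosis genes beside that of adipocyte genes, so a change need not lie in adipocytes. The age of the mice and the dose and timing of the siRNAs are not given in the sources used here. It is not stated in the labels if the 3 libraries of a group stem from different animals or dishes. A p-value here therefore reflects the spread between libraries of the same group, estimated over all 24 libraries, and that spread may be technical.

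Poly(A) RNA was sequenced, and each of the 6 libraries had between 14260988 and 14838487 counts on genes. Between 20773 and 21250 genes had a count. Outside the experiment, iWAT aKO siNS replicate 2 had 603585 gene counts, against 8435494 to 15388744 in the other 23 libraries, and enters the results below only through the shared estimate of the spread and the iWAT aKO values. Of 26 patterning genes that usually separate the fat depots, such as Hoxc8, Hoxc9, Tbx15 and Wt1, 1 differed between iWAT and eWAT Cont cultures with siCEBPb and 0 with siNS by the edgeR quasi-likelihood (QL) test, against 3.35% and 1.2% of all genes tested. The log2 difference of iWAT minus eWAT was 0.25 with siCEBPb and 0.22 with siNS for Hoxc8, 0.07 and 0.02 for Tbx15, and -0.08 and -0.07 for Wt1. These have the sign usual for the depots, but none of them passed. Same-numbered eWAT and iWAT Cont libraries also deviated from their group means together, with correlations across 8159 genes of 0.0796, 0.235 and 0.160 with siCEBPb and 0.270, 0.425 and 0.312 with siNS. What the numbers mean is not stated in the labels, and values from iWAT are therefore not independent of those from eWAT in the way separate animals would be.

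C/EBPβ is a basic leucine zipper protein that is made early when precursors are given adipogenic hormones. With C/EBPδ it switches on Pparg and Cebpa, whose products then drive the genes of lipid storage. Outside fat formation it is known as a factor of the inflammatory and acute phase response, first described at the Il6 promoter, and as a factor that macrophages need for many of their genes. C/EBP proteins bind DNA as dimers to sites related to the palindrome TTGCGCAA. The relative Ddit3 product (CHOP) and the factor ATF4 pair with C/EBP proteins on a composite site of the form TGATGCAA.

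The stretches of promoter shown here come from genes described below that changed, and let the reader see the letters to which the counts of matches refer. Capitals mark the match. In the first 6, which belong to genes that fell, it is to TTGCNNAA on either strand (its reverse complement is TTNNGCAA). In the last pair, which belong to genes that rose, it is to TGATGCAA (reverse complement TTGCATCA). All were taken from genes already called as changed, and the last pair was chosen after its values were seen. The pairing of motif and direction shown follows from this choice. TTGCNNAA also lay upstream of Kcnk2, which rose (log2 2.20), and TGATGCAA upstream of Pi16, which fell (log2 -0.73).
Il6: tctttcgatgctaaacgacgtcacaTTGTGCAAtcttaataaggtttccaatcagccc
Ptx3: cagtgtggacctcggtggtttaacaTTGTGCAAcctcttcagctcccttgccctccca
Clec4e: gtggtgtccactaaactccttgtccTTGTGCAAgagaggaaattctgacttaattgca
Lcn2: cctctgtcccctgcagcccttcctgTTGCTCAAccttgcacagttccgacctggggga
Saa3: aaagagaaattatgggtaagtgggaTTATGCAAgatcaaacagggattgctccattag
Mmp3: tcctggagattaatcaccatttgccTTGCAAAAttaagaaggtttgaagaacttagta
Chac1: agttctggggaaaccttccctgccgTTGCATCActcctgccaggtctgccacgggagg
Fgf21: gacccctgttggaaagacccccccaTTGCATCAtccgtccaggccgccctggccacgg
Each is written 5′ to 3′ on the gene's own strand, from RefSeq promoter windows of build GRCm38.p6, and lies upstream of the RefSeq start. GENCODE M21 places the start of Lcn2 further upstream, so that stretch lies within the gene as GENCODE draws it, and the other 7 lie outside theirs. On the plus strand are Il6 at chr5:30012961-30013018, Ptx3 at chr3:66219805-66219862, Mmp3 at chr9:7445649-7445706 and Chac1 at chr2:119351024-119351081. On the minus strand are Clec4e at chr6:123289905-123289962, Lcn2 at chr2:32387923-32387980, Saa3 at chr7:46715743-46715800 and Fgf21 at chr7:45615597-45615654. The match begins 128 bases before the start in Il6, 57 in Ptx3, 66 in Clec4e, 216 in Lcn2, 99 in Saa3, 148 in Mmp3, 193 in Chac1 and 139 in Fgf21.

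Windows of 250 bases before to 50 bases after the start were held for 10729 of the 14785 genes tested. TTGCNNAA was found on either strand in 101 of 556 windows (18.2%) of genes that fell at least 2-fold, in 233 of 1685 (13.8%) of all genes that fell, in 106 of 1289 (8.22%) of genes that rose and in 1095 of 10729 (10.2%) of all windows. Of genes that rose at least 2-fold, 12 of 161 windows (7.45%) held it. The full palindrome TTGCGCAA, which is contained in TTGCNNAA, was rare, in 3 of 1685 windows (0.178%) of genes that fell and in 0.364% of all windows. TGATGCAA, which shares no match with TTGCNNAA, was in 5 of 161 windows (3.11%) of genes that rose at least 2-fold and in 10 of 556 (1.8%) of genes that fell at least 2-fold. It was in 1.78% of windows of all genes that rose, in 0.95% of those of genes that fell and in 0.755% of all windows. These shares are descriptions of letters in fixed windows, and no binding was measured.

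Levels are given as CPM, the count of a gene scaled to a common library total, with the scaling factors described under processing. The targeted gene was measured at 57.3, 42.3 and 51.5 CPM in siCEBPb libraries, against 156, 166 and 181 CPM in siNS libraries. The groups did not overlap, and Cebpb was 3.33-fold lower with siCEBPb (log2 fold change -1.73 ± 0.16, SE of the fit here and below; edgeR QL adjusted p = 4.25e-08). Cebpb lies on chromosome 2 and overlaps Tmem189 on the opposite strand. Whether reads were counted by strand is unknown here, so the values of genes that overlap another on the opposite strand are uncertain, and the main such cases are named. Cebpa, which encodes C/EBPα, was measured at 66.4, 52.4 and 67.7 CPM in siCEBPb libraries, against 92.4, 119.7 and 111 CPM in siNS libraries, without overlap, and fell by 0.79 on the log2 scale (edgeR QL adjusted p = 0.00217). Ddit3, which encodes CHOP, a C/EBP relative made under stress, went the other way. It had 89.5, 93.3 and 98.4 CPM in siCEBPb libraries, against 56.2, 62.7 and 55.1 CPM in siNS libraries, and its log2 fold change was 0.69 ± 0.07 (edgeR QL adjusted p = 2.78e-08), although it overlaps Mars on the opposite strand. Cebpd did not pass the threshold, with 61.0, 59.5 and 64.8 CPM in siCEBPb libraries, against 64.0, 74.9 and 73.6 CPM in siNS libraries. Cebpz, with log2 0.00, did not pass either. Cebpg passed narrowly, at a log2 fold change of 0.16 ± 0.06 (edgeR QL adjusted p = 0.0495), and its adjusted p was 0.0825 to 0.142 with any 1 of the 6 libraries left out. Thus 4 of the 6 tested family members changed, where 26.8% of all genes tested did. The 4 include Cebpb, whose fall the siRNA was meant to cause, and Cebpg, whose call was lost with any library left out. Senp2 itself had 50.8, 49.9 and 49.0 CPM in siCEBPb libraries, against 57.1, 53.6 and 52.7 CPM in siNS libraries and did not pass (edgeR QL adjusted p = 0.205).

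**Figure D1:**
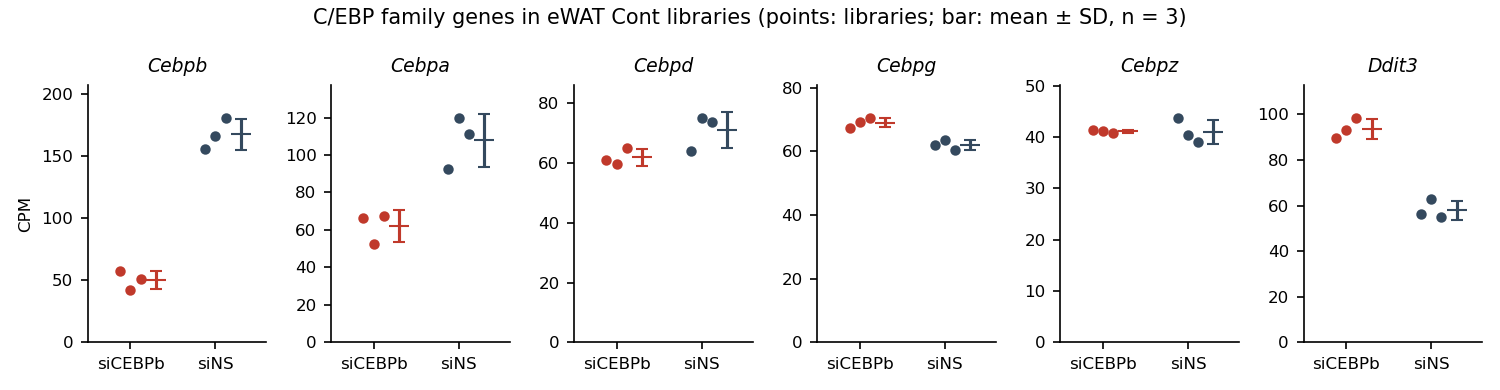
CPM (y axis) of 6 C/EBP family genes in the 3 siCEBPb (red, left) and 3 siNS (dark, right) libraries of eWAT Cont cultures, with mean ± SD. Cebpb and Cebpa lie lower and Ddit3 higher in every siCEBPb library, while Cebpd and Cebpz overlap between the groups.

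Across the 14785 genes tested, 3958 (26.8%) changed at an adjusted p under 0.05. Of these, 1750 (11.8% of the genes tested) were higher and 2208 (14.9%) were lower with siCEBPb. Falls were larger than rises: their median log2 fold change was -0.67, against 0.42 for rises, and 758 genes fell at least 2-fold while 252 rose that much. At 4-fold the counts were 199 and 33. The median of all genes tested was 0.02. A principal component that held 72% of the variance between the 6 libraries separated the siRNAs, and the next, with 8.33%, set siNS replicate 3 apart from the other 5 libraries. The 3 siCEBPb and 3 siNS libraries did not overlap in 45.9% of genes tested.

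**Figure D2:**
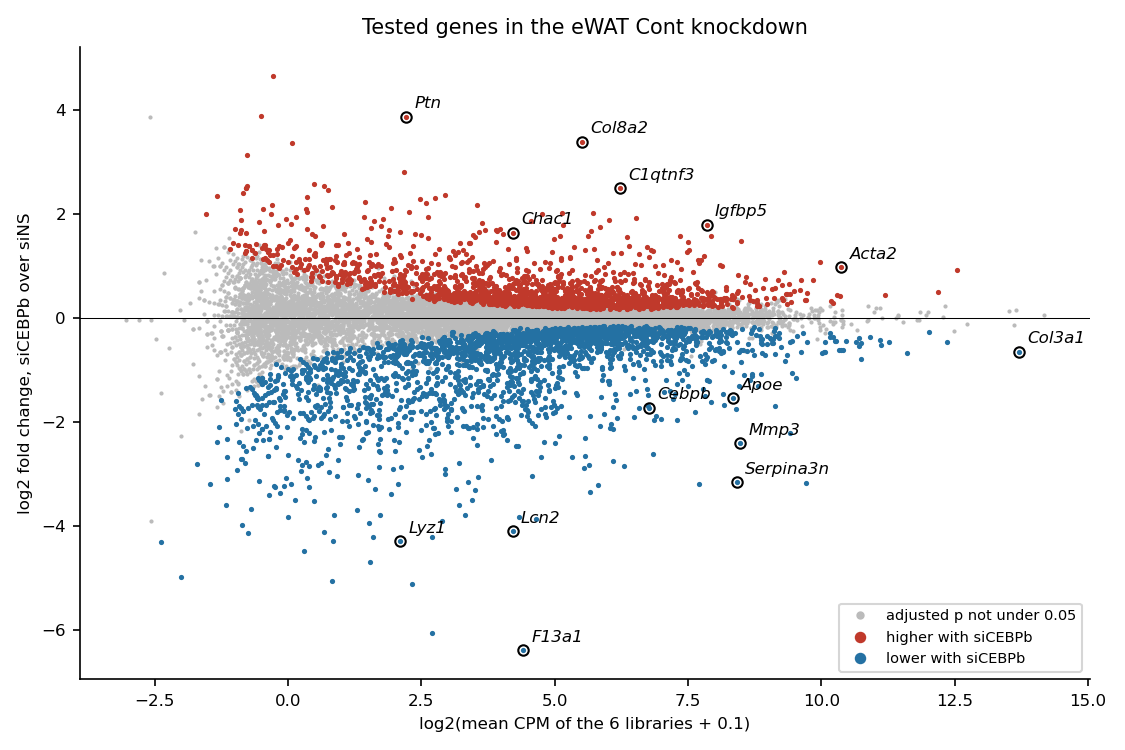
Log2 fold change of siCEBPb over siNS (y axis) against the mean level over the 6 libraries (x axis, log2 CPM with 0.1 added) for the 14785 genes tested, with genes higher at an adjusted p under 0.05 in red, lower in blue and others in grey. Circled genes are named in the text; F13a1 lies lowest among them at -6.40 and Ptn highest at 3.86.

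Of the 15 largest falls among genes averaging at least 1 in log2 CPM, 2 were of genes on the list of leukocyte markers, Lyz1 and Itgam. Cd163, also on that list, and Serpina3m, at log2 -5.13 and -6.08, were outside this ranking. The largest of the 15 was of F13a1, the A chain of coagulation factor XIII, which tissue macrophages make. It had 0.793, 0.198 and 0.466 CPM in siCEBPb libraries, against 41.3, 45.8 and 38.5 CPM in siNS libraries, an 84.4-fold difference (log2 -6.40 ± 0.19; edgeR QL adjusted p = 5.8e-19). The others were Lyz1 (a lysozyme, log2 -4.30), the lectin receptors Clec4n and Clec4e (-4.22 and -3.80), Lcn2 (-4.11), the protease inhibitor Serpinb2 (-3.91), the chemokine Ccl6 (-3.87), the Fc receptor Fcgr2b (-3.84), Aoah, which inactivates endotoxin (-3.61), the membrane protein gene Ms4a6b (-3.50), the carbonyl reductase gene Cbr2 (-3.40), the sialic acid receptor Siglec1 (-3.36), the integrin chain Itgam (-3.31), the scavenger receptor Msr1 (-3.22) and Tnfsf11, which encodes RANKL (-3.30). In each of the 15 the groups did not overlap, which the choice of genes required.

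Of 30 markers of macrophages and other leukocytes, 19 were tested; 17 fell and 0 rose, where 14.9% of all genes tested fell. Their median log2 fold change was -1.70. Adgre1, the macrophage marker F4/80, had 25.4, 25.1 and 26.7 CPM in siCEBPb libraries, against 122, 113 and 86.2 CPM in siNS libraries. Mrc1, the mannose receptor CD206, had 16.2, 16.9 and 19.98 CPM in siCEBPb libraries, against 132, 133 and 93.5 CPM in siNS libraries. Lyz2, the lysozyme of myeloid cells, had 176, 149 and 171 CPM in siCEBPb libraries, against 1675, 1599 and 1234 CPM in siNS libraries. No siCEBPb library reached the lowest siNS library in these genes, and siNS replicate 3 was the lowest of the siNS libraries in each. Cd163, a haemoglobin scavenger receptor of tissue macrophages, had 5, 1 and 6 counts in siCEBPb libraries, against 142, 152 and 124 counts in siNS libraries (log2 -5.13 ± 0.30; edgeR QL adjusted p = 3.06e-13). Cd14, the co-receptor for endotoxin, fell by 1.68 on the log2 scale. Fcgr1, a high affinity Fc receptor, fell by 1.88. Csf1r, the receptor of the macrophage growth factor M-CSF, fell by 1.71. The lysosomal protein gene Cd68 of macrophages fell by 1.48.

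The summed level of the 19 tested markers was 439.5 to 504 CPM in siCEBPb libraries, against 2075 to 2882 CPM in siNS libraries. Lymphocyte markers were almost absent: Cd3e, Cd3g and Cd8a had no count in any of the 6 libraries. Each of the other settings tried, and each fit with a library left out, also gave 17 falls. In bulk RNA, fewer macrophages in a culture and less of these RNAs per macrophage cannot be told apart. The part of this difference in the changes of immune genes described next was not tested.

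Genes of the complement and clotting systems fell in 22 of 37 tested cases and rose in 3, where 14.9% of all genes tested fell and 11.8% rose (median log2 -0.56). Beside F13a1, the falls included C1qb, a chain of the first complement component, at log2 -1.89, and the receptors C5ar1 and C3ar1 of the complement peptides, at -2.13 and -1.47. Properdin, the product of Cfp, stabilises the complement convertase, and Cfp fell by 2.68. C7, a part of the membrane attack complex made by stromal cells, fell by 2.17, and F5, clotting factor V, fell by 2.79. Complement C3 is made by adipocytes and macrophages, and C3 had 225, 177 and 202 CPM in siCEBPb libraries, against 506, 555 and 436 CPM in siNS libraries.

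Of 24 tested chemokine genes, 11 fell and 4 rose, with a median of -0.55; the share that rose is near the 11.8% of all genes tested. Ccl6 had 3.11, 2.65 and 3.86 CPM in siCEBPb libraries, against 49.8, 41.1 and 49.7 CPM in siNS libraries, and Ccl9, also a chemokine of myeloid cells, fell by 2.65. Cxcl5, which attracts neutrophils, fell by 1.86, and Cxcl14 by 1.63. Ccl2, the main attractant of monocytes, did not pass, with a log2 fold change of -0.14. Without siCEBPb replicate 1, siCEBPb replicate 2, siNS replicate 1 or siNS replicate 2, 2 rose. Cxcl9, a chemokine induced by interferon, was among those that rose. It had 4.50, 5.09 and 4.33 CPM in siCEBPb libraries, against 2.05, 1.02 and 0.712 CPM in siNS libraries, without overlap (log2 1.87 ± 0.28; edgeR QL adjusted p = 7.95e-06).

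Acute phase genes encode secreted proteins that liver, fat and macrophages release in inflammation. Of 22 tested, 15 fell, against 14.9% of all genes, and 0 rose, with a median of -1.28. Serpina3n, a protease inhibitor, had 72.1, 61.8 and 71.8 CPM in siCEBPb libraries, against 533, 722 and 590.3 CPM in siNS libraries, an 8.97-fold difference (log2 -3.17 ± 0.17; edgeR QL adjusted p = 4.47e-12). Lcn2, which encodes the iron-carrier binding protein lipocalin 2, had 1.98, 1.72 and 2.33 CPM in siCEBPb libraries, against 25.2, 47.6 and 31.6 CPM in siNS libraries. Hp, haptoglobin, had 270.2, 214 and 304 CPM in siCEBPb libraries, against 702, 1023 and 834 CPM in siNS libraries. None of these 3 groups of values overlapped. Ptx3, a pentraxin made by stromal cells and macrophages, had 151, 152 and 149 CPM in siCEBPb libraries, against 424, 428 and 407 CPM in siNS libraries, also without overlap. Lbp, the carrier of endotoxin in blood, fell by 1.42, and Mt1 and Mt2, metallothioneins that bind zinc, by 1.05 and 1.10. Of the serum amyloid genes, Saa3 had 46.7, 39.8 and 55.8 CPM in siCEBPb libraries, against 78.3, 87.4 and 71.9 CPM in siNS libraries (log2 -0.74 ± 0.19; edgeR QL adjusted p = 0.00644), and Saa2 had 2, 2 and 5 counts in siCEBPb libraries, against 20, 51 and 33 counts in siNS libraries. Serpina3m had 3, 4 and 1 counts in siCEBPb libraries, against 131, 244 and 171 counts in siNS libraries. Genes of the Serpina3 family and the Saa family are close copies of each other, so the split of reads within each family is uncertain.

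The IL-6 family had 11 falls and 1 rise among 19 tested genes, where 14.9% of all genes fell (median -0.34). Il6 itself was low and had 3.77, 4.70 and 4.73 CPM in siCEBPb libraries, against 8.69, 7.46 and 7.33 CPM in siNS libraries (log2 -0.83 ± 0.14; edgeR QL adjusted p = 4.74e-05). Socs3, the feedback inhibitor of this pathway, had 65.7, 59.9 and 63.1 CPM in siCEBPb libraries, against 128, 154 and 150.2 CPM in siNS libraries, and the groups did not overlap. The shared receptor chain Il6st fell by 0.63 and the receptor chains Osmr and Lifr by 0.41 and 0.42. Lif, a cytokine of the family, rose, with a log2 fold change of 1.04 ± 0.10. Stat3, the factor that these receptors activate, did not pass (log2 -0.09).

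Genes that NF-kB activates fell in 16 of 23 tested cases and rose in 1, beside 14.9% and 11.8% of all genes (median -0.47). Traf1, an adaptor of tumour necrosis factor receptors, fell by 2.87, Cd40, a receptor of antigen-presenting cells, by 2.37 and Sod2, the mitochondrial superoxide dismutase, by 0.73. Tnf had 1.45, 1.46 and 1.53 CPM in siCEBPb libraries, against 4.93, 4.48 and 3.13 CPM in siNS libraries, and the groups did not overlap. The NF-kB subunits themselves moved less: Nfkb1 and Nfkb2 fell by 0.26 and 0.25, and Rela did not pass. Vcam1, an adhesion molecule of stromal and endothelial cells, rose (log2 0.70 ± 0.09). Prostaglandin genes fell in 12 of 20 tested cases and rose in 1 (0 without siCEBPb replicate 1 or siNS replicate 2), with 14.9% of all genes falling; Hpgds, a prostaglandin D synthase, fell by 1.32 and Ptgfr, the receptor of prostaglandin F, by 1.45.

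The adipocyte identity genes, 36 in number, were all tested; 15 fell and 2 rose, beside 14.9% and 11.8% of all genes, with a median of -0.57 and a summed level of 2857 to 3550.4 CPM in siCEBPb libraries, against 4249.9 to 5417 CPM in siNS libraries. Lpl, the lipase that frees fatty acids from lipoproteins, had 472, 365 and 516 CPM in siCEBPb libraries, against 949, 1156 and 937 CPM in siNS libraries (log2 -1.17 ± 0.25; edgeR QL adjusted p = 0.0012). Dgat2, which makes triglyceride in its last step, had 32.9, 22.5 and 34.4 CPM in siCEBPb libraries, against 97.2, 134 and 111 CPM in siNS libraries. Slc2a4, the insulin-responsive glucose transporter GLUT4, had 3.04, 1.92 and 3.13 CPM in siCEBPb libraries, against 5.34, 7.53 and 7.12 CPM in siNS libraries (log2 -1.30 ± 0.32; edgeR QL adjusted p = 0.00356). The groups did not overlap in these genes. Fabp5, a fatty acid carrier, fell by 1.02, Gpam, which starts glycerolipid synthesis, by 0.82 and Retn, the hormone resistin, by 2.03.

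Several of the best known adipocyte genes did not pass. Pparg, the master factor of fat cell formation, had 19.4, 19.1 and 25.5 CPM in siCEBPb libraries, against 24.8, 28.3 and 24.4 CPM in siNS libraries (edgeR QL adjusted p = 0.186), and the groups overlapped. Adipoq had 90.5, 75.8 and 102 CPM in siCEBPb libraries, against 58.2, 80.3 and 70.6 CPM in siNS libraries (log2 0.36 ± 0.28; edgeR QL adjusted p = 0.399), also with overlap. Fabp4 had 287, 252 and 348 CPM in siCEBPb libraries, against 401, 561 and 426 CPM in siNS libraries (edgeR QL adjusted p = 0.0866), without overlap. Cd36, a fatty acid transporter, and Plin1, the coat protein of lipid droplets, had log2 fold changes of -0.74 ± 0.27 and -0.40 ± 0.28, and neither passed. Lep, the hormone leptin, stayed under 1 CPM in every library and did not pass. The groups did not overlap in Cd36, which had 143, 137 and 142 CPM in siCEBPb libraries, against 223, 252 and 232 CPM in siNS libraries, and in the 6 libraries alone its edgeR QL adjusted p was 9.36e-10. Pck1, which makes glycerol for triglyceride, was 1 of the 2 that rose, with 18, 15 and 30 counts in siCEBPb libraries, against 0, 1 and 1 counts in siNS libraries; no fold is given against so few counts. With no filter on low counts, 25 of the 36 genes fell, Fabp4, Cd36 and Plin1 among them. Adipoq passed as a rise in that fit (log2 0.36, edgeR QL adjusted p = 0.000922).

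Of 23 genes of fatty acid and triglyceride synthesis, 13 fell and 0 rose, where 14.9% of all genes fell (median -0.45). The falls included Me1, malic enzyme, at -0.84, Acaca, acetyl-CoA carboxylase, at -0.60, Scd2, a desaturase, at -0.45 and Acly, which makes cytosolic acetyl-CoA, at -0.35. The count was 7 without siCEBPb replicate 2 and 7 without siNS replicate 2. Fasn, fatty acid synthase, had a log2 fold change of -0.67 ± 0.20 (edgeR QL adjusted p = 0.0163), with adjusted p-values of 0.085, 0.0634 and 0.0513 without siCEBPb replicate 2, siNS replicate 2 and siNS replicate 3. Of 17 genes of lipolysis, 7 fell and 0 rose, with 14.9% of all genes falling. They were led by receptors that restrain fat release. Adora1, an adenosine receptor, fell by 3.29, Hcar1, the lactate receptor, by 1.89, and Hcar2, the niacin receptor, fell by 2.69. Pnpla2, the triglyceride lipase ATGL, fell by 0.84, but its edgeR QL adjusted p of 0.0132 became 0.062 without siCEBPb replicate 2 and 0.0651 without siNS replicate 2.

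Among 30 regulators of fat cell formation, 6 rose and 8 fell (13 fell in a fit of the 6 libraries alone), beside 11.8% and 14.9% of all genes. Dlk1, the precursor gene also called Pref-1, had 15.3, 16.3 and 14.7 CPM in siCEBPb libraries, against 6.50, 4.82 and 5.91 CPM in siNS libraries, without overlap (log2 1.43 ± 0.13; edgeR QL adjusted p = 4.05e-09). Ebf2 and Zfp423, factors of committed precursors, rose, with log2 fold changes of 0.70 ± 0.10 and 0.66 ± 0.14. Klf9 fell by 0.59, Nr1h3, the oxysterol receptor LXRα, by 0.76, and Ppargc1b, a coactivator of mitochondrial genes, by 1.21. Ppargc1a was below 1 CPM in all 6 libraries and did not pass.

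Adipokines, the signals that adipocytes secrete, fell in 12 of 22 tested cases and rose in 1, against 14.9% and 11.8% of all genes (median -0.63). Apln, the peptide apelin, had 17.0, 14.9 and 15.7 CPM in siCEBPb libraries, against 74.2, 97.3 and 64.2 CPM in siNS libraries. Spp1, osteopontin, fell by 2.21, Agt, angiotensinogen, by 1.95 and Angptl2 by 0.84. Fgf21, a hormone that liver and fat release under metabolic stress, had 5.09, 4.90 and 5.73 CPM in siCEBPb libraries, against 1.64, 1.09 and 1.495 CPM in siNS libraries (log2 1.89 ± 0.22; edgeR QL adjusted p = 1.15e-07). Neither Apln nor Fgf21 overlapped between the groups, and Fgf21 was the 1 adipokine that rose. Genes of brown and beige fat showed no common direction, with 3 rises and 5 falls among 21 tested, where 26.8% of all genes changed. Ucp1, the uncoupling protein of brown fat, had no count in the 6 libraries, and Cidea had 1 count in all.

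Of 21 glycolysis genes 17 fell, against 14.9% of all genes, and 0 rose, with a median of -0.49. Their summed level was 6328 to 6692 CPM in siCEBPb libraries, against 9055 to 9468 CPM in siNS libraries. Slc2a1, the glucose transporter GLUT1, had 126, 119 and 126 CPM in siCEBPb libraries, against 206, 212 and 216 CPM in siNS libraries (log2 -0.77 ± 0.07; edgeR QL adjusted p = 5.95e-10). Slc16a3, the lactate exporter MCT4, had 109.7, 115 and 119 CPM in siCEBPb libraries, against 230.1, 239 and 223 CPM in siNS libraries (log2 -1.01 ± 0.07; edgeR QL adjusted p = 2.48e-11). Neither gene overlapped between the groups. Pfkfb3, which makes the activator of glycolysis, fell by 0.86 and Pgk1 by 0.73. The enzyme genes Pkm, Eno1, Gapdh and Ldha fell by 0.55, 0.46, 0.46 and 0.48.

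Of 17 genes that low oxygen induces, 12 fell, against 14.9% of all genes, and 1 rose, which became 0 without siCEBPb replicate 1, siCEBPb replicate 3, siNS replicate 1 or siNS replicate 3 (median -0.50). Pdk1, which keeps pyruvate out of mitochondria, fell by 0.92, Bnip3, a mitophagy receptor, by 0.78, Egln1, an oxygen sensor of the pathway, by 0.73, and Car9, a carbonic anhydrase, by 2.19. Epas1, which encodes HIF-2α, fell by 1.16, while Hif1a (log2 -0.29) and Vegfa (log2 -0.07) did not pass. In the 6 libraries alone Hif1a passed as a fall (edgeR QL adjusted p = 0.000513). It also passed without iWAT aKO siNS replicate 2, with limma voom and with no filter. The genes of the mitochondrial pathways stayed near 0. Of 20 genes of the citric acid cycle 1 fell (0 without siCEBPb replicate 1, 2 or 3 or siNS replicate 2 or 3, and 2 without siNS replicate 1), with a median of -0.08, and of 72 respiratory chain genes 3 rose (0 without siCEBPb replicate 3, and 1 without siCEBPb replicate 1 or siNS replicate 3), with a median of 0.08. In a fit of the 6 libraries alone 14 of the 72 rose, and with limma voom 12 did, while 6 citric acid cycle genes fell with limma voom. Genes of fatty acid oxidation had 4 rises and 2 falls among 25, close to the 26.8% of all genes that changed; the falls numbered 1 without siCEBPb replicate 1, 2 or 3 or siNS replicate 2 or 3, and the rises 7 in the 6 libraries alone.

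Cholesterol synthesis genes were mixed as well, with 3 rises (0 without siCEBPb replicate 1, siCEBPb replicate 3 or siNS replicate 2, and 1 without siCEBPb replicate 2 or siNS replicate 1) and 5 falls (3 without siNS replicate 3) among 25. Genes of cholesterol export and transport leaned lower, with 6 falls and 1 rise among 12, beside 14.9% and 11.8% of all genes. Apoe, the apolipoprotein that macrophages and adipocytes secrete, had 165, 139 and 188 CPM in siCEBPb libraries, against 486, 493 and 468 CPM in siNS libraries, without overlap (log2 -1.55 ± 0.17; edgeR QL adjusted p = 5.63e-07). Scarb1, the HDL receptor, fell by 0.74 and Npc1, a lysosomal cholesterol transporter, by 0.70. Hsd11b1, the enzyme that regenerates active glucocorticoid, had 9.46, 8.27 and 8.79 CPM in siCEBPb libraries, against 25.9, 26.7 and 27.2 CPM in siNS libraries (log2 -1.59 ± 0.18), and it overlaps Lamb3 on the opposite strand.

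Insulin signalling genes had 4 rises and 8 falls among 25, where 11.8% of all genes rose and 14.9% fell. Irs1, the main adaptor of the insulin receptor in fat, had 114, 112 and 112 CPM in siCEBPb libraries, against 67.0, 65.1 and 70.1 CPM in siNS libraries, without overlap (log2 0.74 ± 0.08; edgeR QL adjusted p = 1.78e-08). Pik3cb, a catalytic subunit of phosphoinositide 3-kinase, fell by 0.85. Genes of the insulin-like growth factors had 3 rises and 4 falls among 15. Among their binding proteins, Igfbp5 had 393, 319 and 359 CPM in siCEBPb libraries, against 114, 93.4 and 102 CPM in siNS libraries (log2 1.79 ± 0.15), Igfbp2 rose (log2 1.153 ± 0.20) and Igfbp4 fell by 1.07.

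Of 34 genes of mitosis 31 fell, against 14.9% of all genes, and 0 rose, with a median of -0.47. Mki67, which encodes the proliferation antigen Ki-67, had 124, 125 and 112 CPM in siCEBPb libraries, against 225, 202 and 203 CPM in siNS libraries (log2 -0.80 ± 0.08; edgeR QL adjusted p = 6.83e-09). Top2a, the topoisomerase of dividing cells, fell by 0.69, Kif11, a spindle motor, by 0.66 and Aurka, a spindle kinase, by 0.67. Of 40 genes of DNA replication and the cycle, 26 fell and 5 rose, beside 14.9% and 11.8% of all genes. Mcm3, a part of the replicative helicase, fell by 0.71, Cdc6, which loads it, by 1.00, and E2f2, a factor of S phase genes, by 1.45. The rises included inhibitors of the cycle. Cdkn2b, which encodes the cyclin kinase inhibitor p15, had 73.1, 74.0 and 73.6 CPM in siCEBPb libraries, against 40.7, 39.5 and 36.9 CPM in siNS libraries (log2 0.91 ± 0.08; edgeR QL adjusted p = 7.26e-10). Cdkn2a, which encodes p16 and p19ARF from overlapping reading frames, had 40.7, 38.7 and 45.03 CPM in siCEBPb libraries, against 23.7, 28.5 and 24.7 CPM in siNS libraries. The groups did not overlap in Mki67, Cdkn2b or Cdkn2a.

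Targets of p53 rose in 14 of 20 tested cases, where 11.8% of all genes tested rose, and 0 fell (median 0.32). Cdkn1a, the cyclin kinase inhibitor p21, had 458, 442 and 472 CPM in siCEBPb libraries, against 335, 337 and 363 CPM in siNS libraries (log2 0.41 ± 0.09; edgeR QL adjusted p = 0.000782). Plk2, a kinase, and Pmaip1 and Bbc3, which encode the cell death proteins NOXA and PUMA, rose, with log2 fold changes of 0.99, 0.80 and 0.72. Mdm2, the inhibitor of p53 that p53 induces, did not pass (log2 0.08). The count of 14 was 9 without siCEBPb replicate 3.

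ATF4 is a factor that amino acid shortage and other stresses switch on, and its targets make and import amino acids. Of 32 tested targets 28 rose, against 11.8% of all genes, and 0 fell, with a median of 0.61. Their summed level was 4646 to 4783 CPM in siCEBPb libraries, against 3227 to 3271 CPM in siNS libraries. Chac1, which breaks down glutathione, had 29.95, 27.0 and 27.6 CPM in siCEBPb libraries, against 10.3, 8.95 and 7.97 CPM in siNS libraries (log2 1.63 ± 0.11; edgeR QL adjusted p = 4.38e-12). Slc7a5, a transporter of large neutral amino acids, had 271, 255 and 269.6 CPM in siCEBPb libraries, against 98.9, 96.3 and 96.6 CPM in siNS libraries (log2 1.45 ± 0.10; edgeR QL adjusted p = 9.49e-12). The groups were far apart in both. Slc7a3, a transporter of cationic amino acids, was among the 15 largest rises (log2 2.36 ± 0.16). Phgdh, which starts serine synthesis, rose (log2 1.00), as did Mthfd2 of mitochondrial folate metabolism (log2 0.68), Cth of cysteine synthesis (log2 1.28), the factor Atf5 (0.54) and the tRNA synthetases Nars and Sars (0.40 and 0.37).

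Genes of the unfolded protein response, the folding machinery of the endoplasmic reticulum, went the other way, with 14 falls and 0 rises among 22, where 14.9% of all genes fell (median -0.31). Sdf2l1, a cofactor of chaperones, fell by 0.82, Pdia6, a disulfide isomerase, by 0.51, Calr, calreticulin, by 0.45 and Xbp1, a factor of the response, by 0.32. Ribosomal protein genes gave no call among 71 (median 0.08), against 26.8% of all genes tested.

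Interferon response genes rose in 30 of 44 tested cases, against 11.8% of all genes, and fell in 0 (median 0.67). Their summed level was 2479 to 2571 CPM in siCEBPb libraries, against 1320.0 to 1729 CPM in siNS libraries. Ifit3, an antiviral protein, had 106, 106 and 92.0 CPM in siCEBPb libraries, against 31.2, 22.2 and 29.9 CPM in siNS libraries (log2 1.87 ± 0.18; edgeR QL adjusted p = 2.07e-07). Stat2, a factor that interferons activate, rose (log2 0.69 ± 0.14), as did the guanylate binding proteins Gbp2 and Gbp7 (0.85 and 0.80), the GTPase Igtp (1.10) and Xaf1 (1.14). Ifit3 and Ifit3b are close copies, so their split is uncertain. Ifi27 and Trim25 did not pass. Genes of the RNA interference machinery that siRNAs use gave no call among 13; Ago2, the slicing enzyme, had a log2 fold change of -0.07. Whether siCEBPb and siNS differ in how strongly the RNAs themselves call forth interferon genes was not tested.

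Of 20 tested genes of smooth muscle, pericytes and contractile fibres 14 rose and 2 fell, beside 11.8% and 14.9% of all genes, with a median of 0.70. Their summed level was 6018 to 6134 CPM in siCEBPb libraries, against 3336 to 3741 CPM in siNS libraries. Acta2, smooth muscle actin, had 1738, 1764 and 1769 CPM in siCEBPb libraries, against 896, 800.1 and 995 CPM in siNS libraries (log2 0.97 ± 0.17; edgeR QL adjusted p = 7.92e-05). Myh11, smooth muscle myosin, had 158, 141 and 137 CPM in siCEBPb libraries, against 39.3, 39.9 and 36.4 CPM in siNS libraries (log2 1.91 ± 0.14; edgeR QL adjusted p = 5.41e-10). Cnn1, calponin, had 123, 118 and 123 CPM in siCEBPb libraries, against 42.9, 36.8 and 44.7 CPM in siNS libraries (log2 1.55 ± 0.20). The groups did not overlap in any of them. Tagln, Tpm1 and Myl9, further parts of contractile fibres, rose, with log2 fold changes of 0.73, 0.87 and 1.10. These genes mark smooth muscle, pericytes and fibroblasts that have turned contractile alike, so a change in the mix of cells and a change within cells cannot be told apart here either.

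Tendon and cartilage genes rose in 10 of 20 tested cases, where 11.8% of all genes rose, and fell in 3 (0 without siCEBPb replicate 2, and 1 without siCEBPb replicate 3 or siNS replicate 3; median 0.44). Tnmd, the tendon protein tenomodulin, which fat precursors also make, was among the 15 largest rises (log2 2.28 ± 0.22). Sox9, the factor of cartilage formation, rose (log2 0.80), as did the tendon factor Scx (1.79), the matrix proteins Cilp, Aspn and Fmod (1.47, 1.35 and 0.87) and Thbs1 (0.92). Collagen genes had 6 rises (3 without siCEBPb replicate 2) and 5 falls among 27, beside 11.8% and 14.9% of all genes. Col8a2, a short chain collagen of basement membranes, had 83.9, 85.3 and 81.3 CPM in siCEBPb libraries, against 8.21, 8.41 and 7.33 CPM in siNS libraries, a 10.4-fold difference (log2 3.38 ± 0.13; edgeR QL adjusted p = 3.98e-16). Col3a1 had 10946, 9977 and 10212 CPM in siCEBPb libraries, against 15699, 17403 and 15905 CPM in siNS libraries (log2 -0.65 ± 0.13). Both were without overlap. Col1a1 and Col1a2, the chains of type I collagen, did not pass (log2 0.06 and 0.12).

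Proteases of the matrix and their inhibitors had 8 rises (5 without siNS replicate 3) and 14 falls among 32, beside 11.8% and 14.9% of all genes. Mmp3, stromelysin, had 104, 108 and 123 CPM in siCEBPb libraries, against 514, 653 and 623 CPM in siNS libraries (log2 -2.42 ± 0.27; edgeR QL adjusted p = 1.78e-06). Mmp8 and Mmp9, proteases of myeloid cells, fell by 2.57 and 3.05. Of the inhibitors, Timp3 rose (log2 1.07 ± 0.10) while Timp1 fell by 1.08, although Timp1 lies within Syn1 on the opposite strand. Genes of the TGF-β and BMP pathways had 9 rises and 11 falls among 43. Among the ligands, Tgfb3 had 243, 238 and 247 CPM in siCEBPb libraries, against 88.6, 71.8 and 86.0 CPM in siNS libraries (log2 1.56 ± 0.09; edgeR QL adjusted p = 3.09e-13). Tgfb2 also rose (log2 0.69), while Tgfb1 fell by 0.60 and Gdf10 by 1.11. Tgfb3 and Mmp3 did not overlap between the groups.

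Among the 15 largest rises, Ptn, the growth factor pleiotrophin, had 8.66, 8.47 and 8.39 CPM in siCEBPb libraries, against 0.616, 0.678 and 0.427 CPM in siNS libraries, from 126 to 131 counts in siCEBPb libraries and 6 to 10 counts in siNS libraries (log2 3.86 ± 0.52; edgeR QL adjusted p = 1.07e-05). Ptprz1, a phosphatase that is a receptor of pleiotrophin, and Ptprb, a related phosphatase, were also among them (log2 2.80 ± 0.26 and 2.23 ± 0.32). C1qtnf3, an adiponectin-like secreted protein, had 125, 133 and 123 CPM in siCEBPb libraries, against 24.1, 19.8 and 23.99 CPM in siNS libraries (log2 2.49 ± 0.11). Nrg1, a ligand of the ERBB receptors, had 39.9, 48.6 and 41.8 CPM in siCEBPb libraries, against 11.4, 9.63 and 11.7 CPM in siNS libraries (log2 1.99 ± 0.11). The groups did not overlap in any of these, which their choice required, as it did an average of at least 1 in log2 CPM. The rest of the 15 were Angptl1, the potassium channel Kcnk2, the engulfment receptor Megf10, Fbxl22, the gap junction protein Gjb2, the cadherin Cdh3 and Rflnb, with log2 fold changes between 2.01 and 2.30.

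Markers of other cells of the stromal fraction moved less evenly. Of 27 tested markers of fibroblasts and precursors 5 rose (3 without siNS replicate 1 or any 1 siCEBPb library) and 8 fell; Pdgfra, a receptor that marks fat precursors, fell by 0.41 and Dpep1 by 1.20, while Vim and Fn1 did not pass. Of 12 endothelial markers 2 rose and 1 fell, near the 26.8% of all genes that changed, and the defining markers Pecam1 and Cdh5 did not pass (log2 0.15 and -0.18). Of 7 tested Schwann cell and neural markers 1 rose and 3 fell. Of 7 tested mesothelial markers 4 rose (2 without siCEBPb replicate 2, 2 in the 6 libraries alone and 0 with the stricter filter on low counts) and 1 fell, at low levels: Upk3b, a uroplakin of the mesothelial surface, had 1.98, 3.51 and 2.20 CPM in siCEBPb libraries, against 0.616, 0.543 and 0.142 CPM in siNS libraries. Wt1, a factor of mesothelium and visceral fat precursors, had 17.2, 13.8 and 15.5 CPM with siCEBPb and 14.3, 15.1 and 15.9 CPM with siNS and did not pass. No haemoglobin gene passed the filter on low counts. Of 26 depot patterning genes 13 rose and 2 fell, beside 11.8% and 14.9% of all genes. Hoxc8 and Hoxc9 rose (log2 0.65 and 0.61), as did Irx3 and Irx5 (0.93 and 0.83), while Sfrp2, a Wnt antagonist, fell by 1.20.

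**Figure D3:**
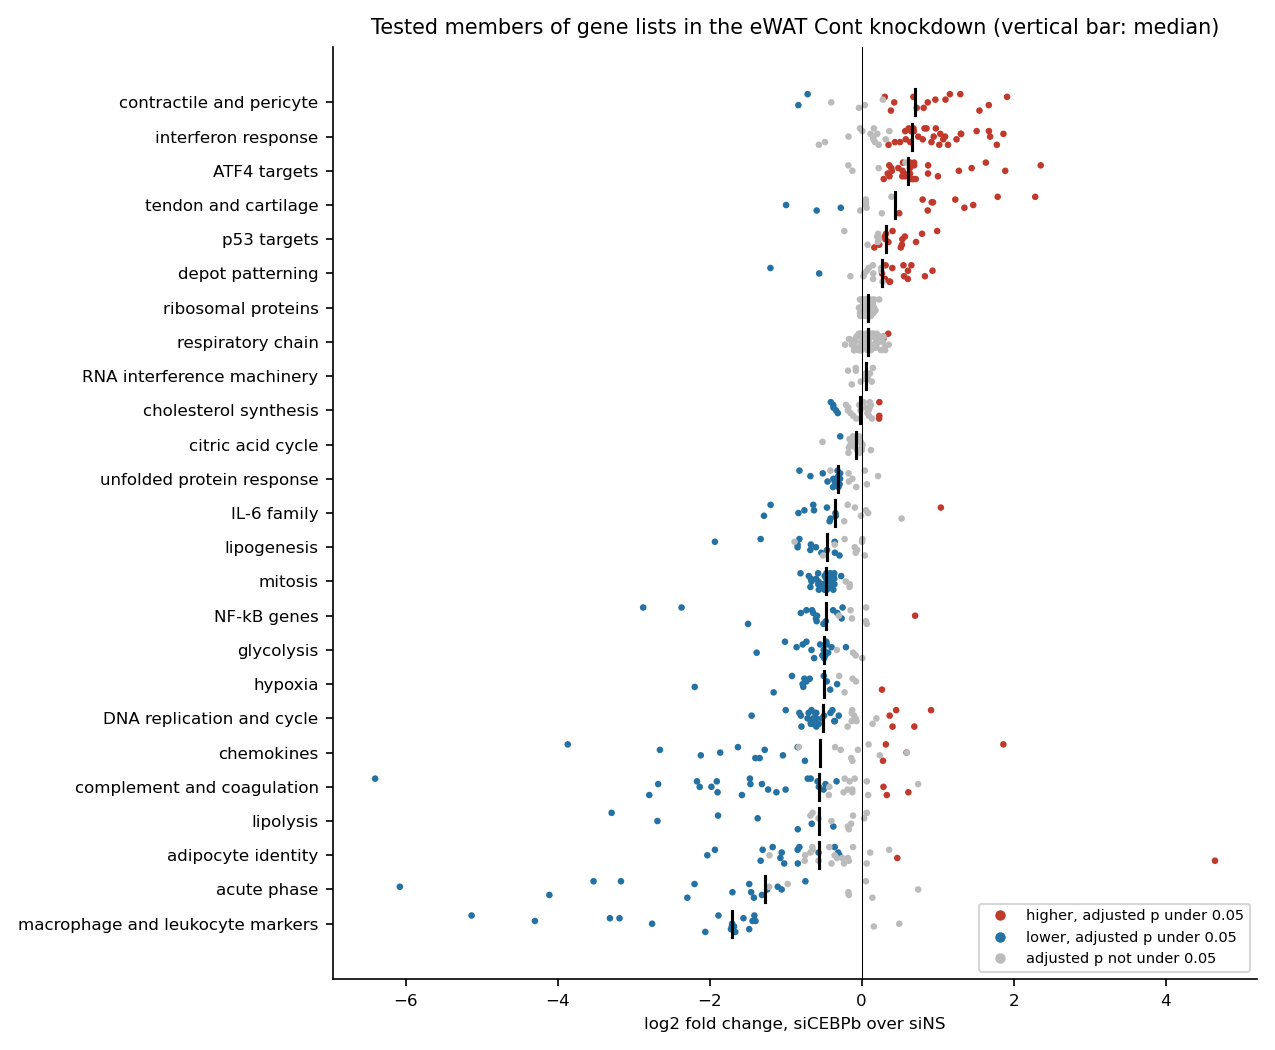
Log2 fold change of siCEBPb over siNS (x axis) for each tested member of 25 gene lists, ordered by their median (black bar), with calls in red (higher) and blue (lower). Macrophage and acute phase lists lie furthest to the left and contractile, interferon and ATF4 lists furthest to the right; the point furthest to the right is Pck1, whose siNS libraries held 0 to 1 counts.

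**Figure D4:**
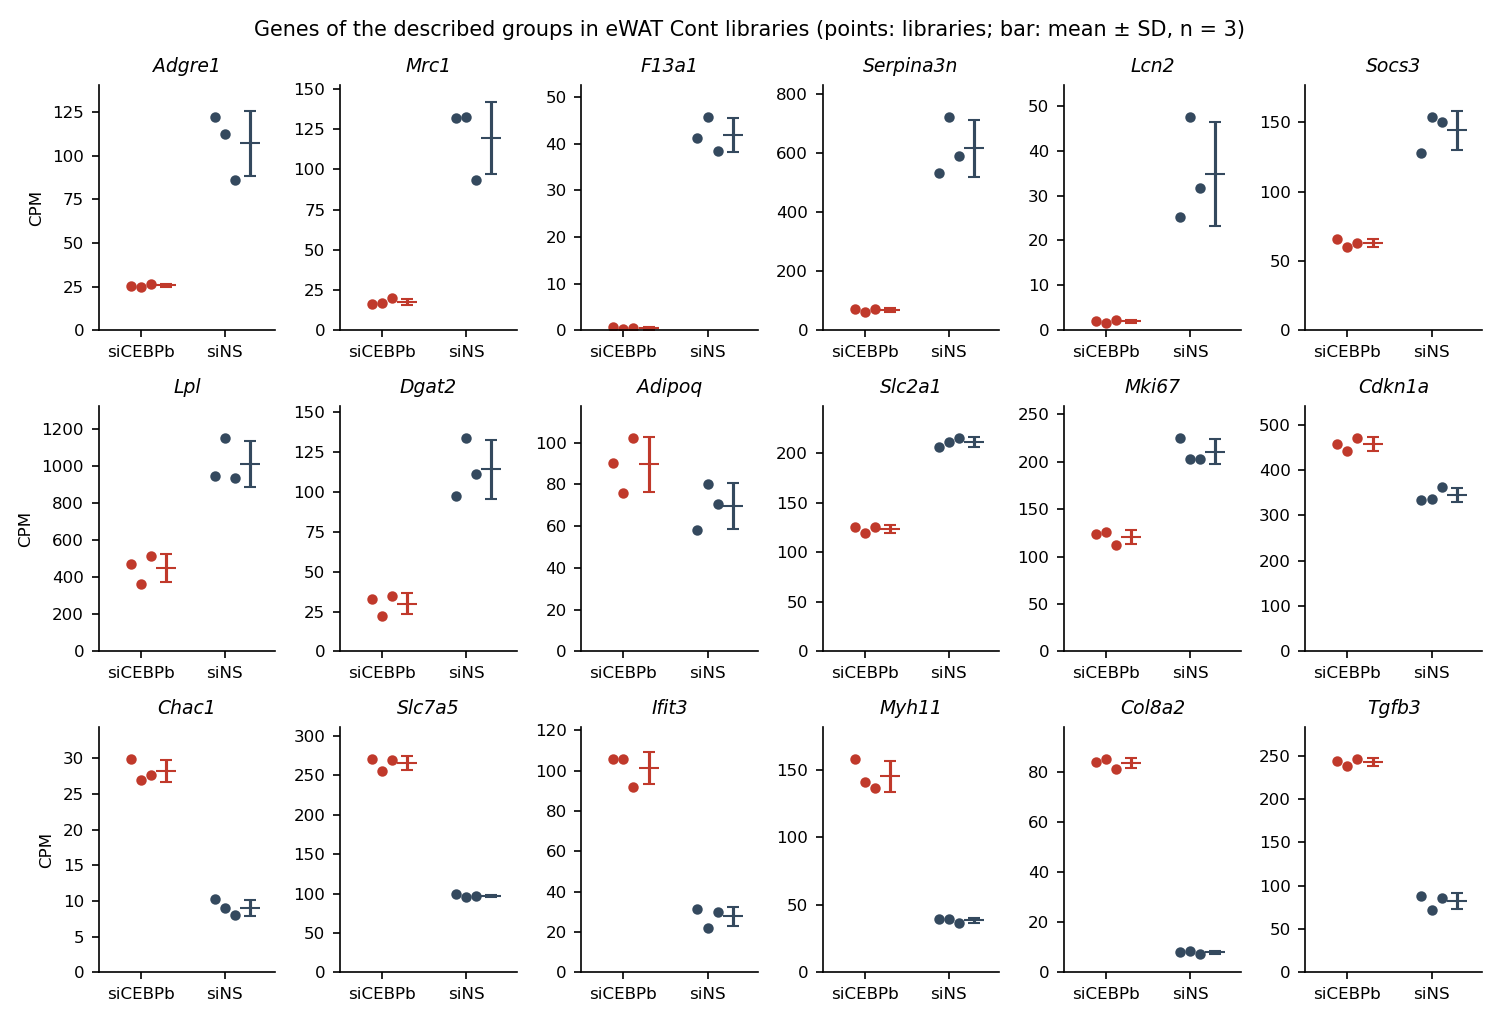
CPM (y axes, each from 0) of 18 named genes in the 3 siCEBPb (red, left) and 3 siNS (dark, right) libraries of eWAT Cont cultures, with mean ± SD. Only in Adipoq do the 2 groups of libraries overlap among the genes drawn.

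The same siRNA pair was applied in 3 further kinds of culture, and the 4 knockdowns share no library. In iWAT Cont cultures 3597 genes changed (24.3%), in eWAT aKO cultures 5274 (35.7%) and in iWAT aKO cultures 4624 (31.3%). Of the 2208 genes that fell in eWAT Cont cultures, 1752 (79.3%) fell in iWAT Cont, 1625 (73.6%) in eWAT aKO and 1542 (69.8%) in iWAT aKO cultures, which is 84.4%, 57.7% and 59.1% of the genes that fell there. Of the 1750 that rose, 1111 (63.5%), 1116 (63.8%) and 965 (55.1%) rose in these cultures, which is 73%, 45.4% and 47.9% of the genes that rose there. Few genes were called in opposite directions: 1 in iWAT Cont, 57 in eWAT aKO and 47 in iWAT aKO cultures.

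The knockdown of the targeted gene was of like size in iWAT Cont cultures, with a log2 fold change of -1.73 in eWAT Cont and -1.79 in iWAT Cont cultures, while it was -2.47 in eWAT aKO and -2.69 in iWAT aKO cultures. The difference between eWAT Cont and eWAT aKO did not pass for Cebpb (edgeR QL adjusted p = 0.0563). No gene of 14785 differed in its knockdown effect between eWAT and iWAT Cont cultures by the edgeR QL test, with 428 genes at an unadjusted p under 0.05; DESeq2 and limma voom also gave 0.

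Between the genotypes, 938 genes (6.34%) differed in the knockdown effect of eWAT cultures by the edgeR QL test of the difference. The count was 543 without eWAT Cont siCEBPb replicate 1, 558 without eWAT Cont siCEBPb replicate 3, 434 without eWAT aKO siCEBPb replicate 1, 571 without eWAT aKO siNS replicate 3, 2007 with limma voom, and 1677 when the shallow iWAT aKO siNS replicate 2 was dropped. Of the 938, 493 (3.33% of the genes tested) had a higher and 445 (3.01%) a lower log2 fold change in Cont than in aKO cultures. The effects had the same sign in 500 of these genes, and of those the effect was smaller in Cont cultures in 418 and larger in 82. Lbp had log2 fold changes of -1.42 in Cont and -3.06 in aKO cultures (difference 1.64 ± 0.24; edgeR QL adjusted p = 0.000383). Saa3 fell by 0.74 in Cont and by 2.05 in aKO cultures (edgeR QL adjusted p of the difference = 0.02). Ddit3 rose more in Cont cultures, with a log2 fold change of 0.69 against 0.18 in aKO cultures (edgeR QL adjusted p of the difference = 0.00272). Il6 fell in Cont cultures, whereas its log2 fold change in aKO cultures was 0.01 (edgeR QL adjusted p of the difference = 0.0256). Star, which brings cholesterol to the mitochondrion for steroid synthesis, did not pass in Cont cultures (log2 -0.08), and its log2 fold change in aKO cultures was 0.98 (edgeR QL adjusted p of the difference = 0.000777).

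**Figure D5:**
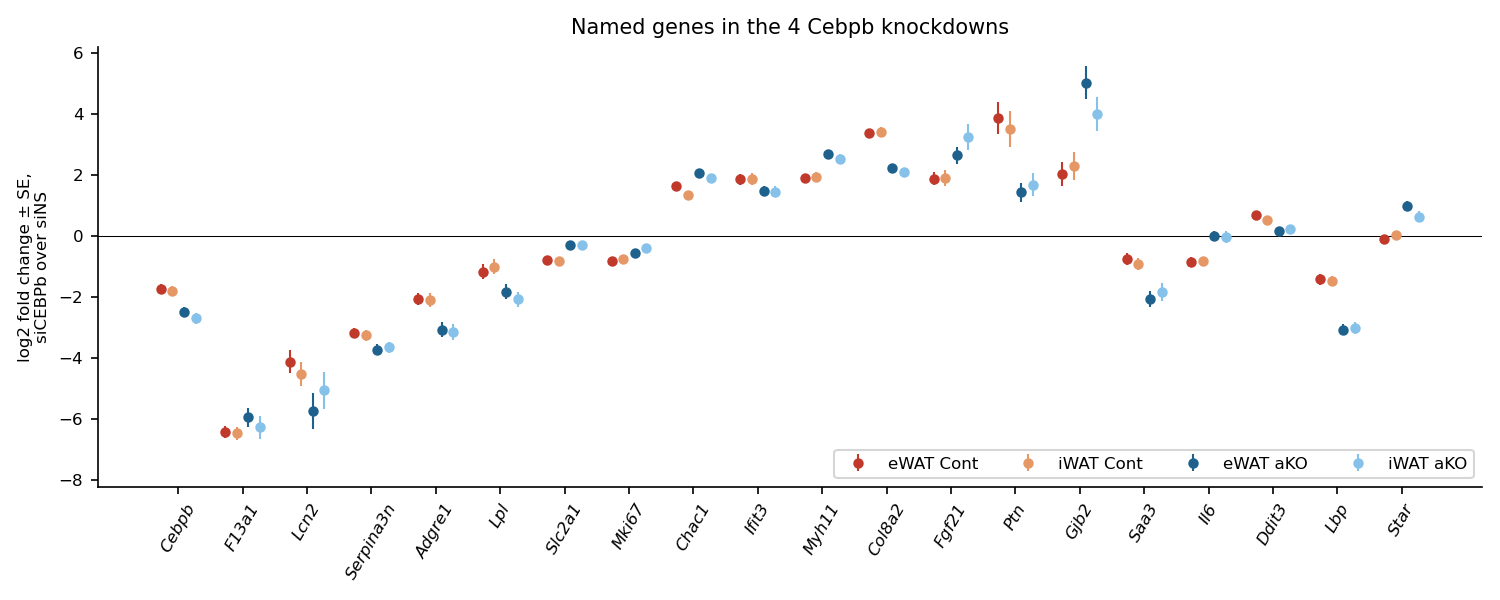
Log2 fold change of siCEBPb over siNS with its SE (y axis) for 20 named genes (x axis) in eWAT Cont (red), iWAT Cont (orange), eWAT aKO (dark blue) and iWAT aKO (light blue) cultures. The 2 Cont knockdowns lie close to each other in the genes drawn, and Gjb2, Lbp, Saa3, Il6 and Ptn are among those where the aKO values stand apart.

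Next to the other knockdowns, most lists had their calls in the same direction. In iWAT Cont, eWAT aKO and iWAT aKO cultures, 14%, 19.1% and 17.7% of all genes tested fell. In the same order, 10.3%, 16.6% and 13.6% rose, beside 14.9% fallen and 11.8% risen in eWAT Cont cultures. Leukocyte markers fell in 16, 18 and 16 of 19 cases in iWAT Cont, eWAT aKO and iWAT aKO cultures, against 17 in eWAT Cont cultures. ATF4 targets rose in 28, 28 and 27 of 32 cases, against 28, and interferon response genes in 32, 32 and 30 of 44, against 30. Adipocyte identity genes fell in 17, 28 and 26 of 36 cases, against 15 in eWAT Cont cultures, with medians of -0.53, -1.05 and -0.98, against -0.57.

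Counts for cell division genes differed between the cultures. Of the 34 genes of mitosis, 31 fell in eWAT Cont cultures and 29 in iWAT Cont cultures, while 6 fell and 2 rose in eWAT aKO cultures and 1 fell and 2 rose in iWAT aKO cultures. The median log2 fold changes were -0.47, -0.42, -0.06 and -0.03 in the same order. The difference in knockdown effect between eWAT Cont and eWAT aKO cultures itself passed for 10 of the 34 genes, all with the lower fold change in Cont cultures, where 3.01% of all genes tested did. Mki67 fell by 0.80 in eWAT Cont and by 0.55 in eWAT aKO cultures, and its difference did not pass (edgeR QL adjusted p = 0.191). Contractile genes differed in 7 of 20 cases, 6 of them with the smaller rise in Cont cultures.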

How the data were processed

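The deposited table holds whole-number counts of reads per gene for 53465 genes in 24 libraries, made by the authors with CASAVA, cutadapt 2.7, TopHat2 2.1.1 and HTSeq on GRCm38, per the submitters' processing notes, which also name edgeR. The kit was directional, per the labels' protocols, and whether counting used strand is not stated; 76 of the genes named overlap an annotated gene on the opposite strand. The deposited per-sample files hold the same counts divided by a constant and were not used. Counter lines that name no gene (29.9% to 31.8% of the listed reads in the 6 libraries) were dropped from totals and from testing.

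Genes were named from GENCODE M21, which matched 53360 identifiers. With edgeR 4.0.16 under R 4.3.3, low genes were removed by filterByExpr (minimum count 10 on the 8 groups), scaled by TMM (factors 0.986 to 1.03 in the 6 libraries) and fitted with 1 mean per group over all 24 libraries (estimateDisp, glmQLFit with robust = TRUE, glmQLFTest). Benjamini-Hochberg adjustment ran over 14785 genes, with a threshold of 0.05. Values are CPM with library totals scaled by the TMM factors. Genes can be compared between libraries but not with each other, since length is not corrected. Fold changes in words are the fitted log2 fold changes turned back into ratios. The script was tested on simulated data.

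The members and the 53 gene lists were chosen with earlier results of these data known. No set test was run: lists are described by counts of calls and medians. Some lists share members, so their counts are not separate results. Lcn2, for one, is both an adipokine and a glucocorticoid target, and Fgf21 both an adipokine and a brown and beige fat gene. Genes named were 26 fixed ones, the 15 largest rises and falls averaging at least 1 in log2 CPM and without overlap between groups, up to 8 called members of a described list by smallest p with up to 4 others by level, and the 8 largest differences each way between knockdown effects. Alternatives were DESeq2 size factors, no filter and a stricter filter (CPM of at least 1 in 12 libraries), DESeq2 1.42.0, limma 3.58.1 (voom with sample weights), the 6 libraries alone, a fit without iWAT aKO siNS replicate 2, a replicate block and each library left out.

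Same-numbered siCEBPb and siNS libraries did not deviate from their group means together (r of 0.0056, -0.0933 and -0.134 over the 8159 genes averaging at least 200 counts), so the numbers were not taken as pairs. No library pair was identical; between replicates of a group, the chi-square of counts per degree of freedom was 1.90 to 5.15. Motifs were searched in RefSeq promoter windows of GRCm38.p6.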

Additional observations from a re-analysis of the deposited data

Results flagged for a closer look

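The knockdown effect differed between eWAT Cont and eWAT aKO cultures in 938 genes by the edgeR QL test of the difference itself, and the 8 largest differences each way are given here as log2 fold change in Cont minus that in aKO cultures. Clec3b, which encodes the plasma protein tetranectin, had a difference of 2.90, with 0.77 in Cont and -2.13 in aKO cultures. Egfl6, a matrix protein that fat cells secrete, had 2.65, with 0.77 in Cont and -1.88 in aKO cultures. Cyp2e1, a cytochrome P450, had 3.45, with -0.19 and -3.64 in the same order. Ndnf, a secreted factor, had 2.40, with -0.24 and -2.65. Ptn had 2.42, with 3.86 and 1.44. Traf1 had 2.36, with -2.87 and -5.23. The aKO siCEBPb libraries lay at 0.328, 0.222 and 0.138 CPM for Traf1 and at 0.0655, 0.443 and 0.968 CPM for Cyp2e1. For Ptn the Cont siNS libraries held 9, 10 and 6 counts. The differences of Traf1, Cyp2e1 and Ptn therefore have no firm size. Clec4n and Clec4e had 3.46 and 2.49; the aKO siCEBPb libraries of Clec4n lay at 0, 0 and 0.0692 CPM, and those of Clec4e at 0.0655, 0.222 and 0.138 CPM, so their fitted folds there have no firm size.

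In the other direction, Ptgs2, the inducible prostaglandin synthase COX-2, had a difference of -3.04, with -0.14 in Cont and 2.89 in aKO cultures. Gjb2 had -3.01, with 2.03 and 5.04; its aKO siNS libraries lay at 0.308, 0.406 and 0.130 CPM, so that fold has no firm size either. Ereg, a ligand of the EGF receptor, had -2.33 and moved in opposite directions, with -1.16 and 1.17. Htr1b, a serotonin receptor, had -1.87, with -0.76 and 1.11. Serpinb2 had -2.29, with -3.91 and -1.62. Ankrd1 had -2.13, with 0.49 and 2.63, and Sema7a had -2.05, with -0.03 and 2.03. Cck had -1.88, with -0.60 and 1.28. The effects in Cont cultures of Cyp2e1, Clec3b, Ndnf, Ptgs2, Ankrd1, Sema7a and Cck did not pass on their own. A difference in effect can stem from unlike levels with siNS as well as with siCEBPb. Mean siNS levels in Cont and aKO cultures were 30.4 and 9.93 CPM for Sema7a, and 8.04 and 32.8 CPM for Egfl6. The siCEBPb means were 29.9 and 40.5 CPM for Sema7a, and 13.7 and 8.9 CPM for Egfl6. In Traf1 the siNS means were closer, at 7.49 and 9.05 CPM. Whether siNS levels differed by genotype was not tested here.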

How the results depend on the processing

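The count of 3958 changed genes was 3104 to 5934 over 14 alternatives, and 3104 to 3521 with 1 of the 6 libraries left out; falls numbered 1877 to 2005 and rises 1212 to 1516 in those 6 fits. Rises outnumbered falls in none of these fits. With limma voom 2880 genes rose, against 1750. The log2 fold change of Cebpb stayed between -1.84 and -1.62. With the replicate block 3705 genes changed, and 778 differed by genotype; beyond Cebpg (edgeR QL adjusted p = 0.0773) and Ankrd1, which then passed (0.0331), the block changed no call of a named gene. The test of the difference between eWAT and iWAT Cont cultures gave 6 genes with no filter and 0 in 12 fits with a library left out; a block shared by same-numbered eWAT and iWAT libraries, chosen after seeing the data, also gave 0, with 496 genes at an unadjusted p under 0.05. The difference between genotypes moved more, with 1677 genes without iWAT aKO siNS replicate 2, 2007 with limma voom, and 434 to 1079 with 1 library left out. The cause was not tested.

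Of 244 genes named and tested, 225 kept their direction and side of the threshold under all alternatives that gave a value (3403 values), and none reversed; 13 further values are missing because 9 low genes fell under a filter. The calls of Cebpg, Fasn, Htr1b and Pnpla2 were lost under at least 1 alternative. Of the uncalled genes, 15 passed under at least 1, among them Pparg (edgeR QL adjusted p = 0.0395 with the 6 libraries alone), Cd36 and Fabp4. Adipoq passed as a rise with no filter. Genes under the filter on low counts were not tested at this depth.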

Other observations

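Among all genes tested 14.9% fell and 11.8% rose. Lists not described so far included 16 glucocorticoid targets, of which 10 fell and 1 rose (median log2 -0.69). Errfi1, an inhibitor of the EGF receptor, fell by 1.09, Fkbp5, a chaperone partner of the glucocorticoid receptor, by 0.59 and Zbtb16, a factor that glucocorticoid strongly induces, by 1.85, while Tsc22d3, which encodes GILZ, rose (log2 0.37 ± 0.08). Immediate early genes had 13 falls and 6 rises among 34 (3 rises without siNS replicate 1 or siNS replicate 2), whereas 16 rose and 3 fell in eWAT aKO cultures. Of all genes tested, 16.6% rose and 19.1% fell in eWAT aKO cultures. The difference between these genotypes itself passed in 14 of the 34, all with the lower fold change in Cont cultures, where 3.01% of all genes tested did. Fos had a log2 fold change of -1.44 ± 0.14, Dusp6, a phosphatase that limits ERK signalling, fell by 1.61, and Spry1, an inhibitor of growth factor receptors, rose (log2 1.57 ± 0.08). Genes of the cAMP pathway had 8 falls and 1 rise among 20, with Pde4b, a phosphodiesterase, at -0.79 and Prkar2b, a regulatory subunit of protein kinase A, at -0.98.

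Clock genes had 7 rises and 5 falls among 18; Dbp, an output factor of the clock, had 49.0, 45.4 and 46.7 CPM in siCEBPb libraries, against 21.3, 20.4 and 23.8 CPM in siNS libraries and Nr1d1, which encodes REV-ERBα, had 41.7, 36.5 and 41.3 CPM in siCEBPb libraries, against 26.0, 26.4 and 26.9 CPM in siNS libraries. Neither overlapped between the groups. Wnt pathway genes had 12 rises and 7 falls among 35, including Wnt9a (log2 1.65 ± 0.12) and the receptor Fzd6 (1.54 ± 0.17). Retinoid genes had 9 rises (5 without siNS replicate 1) and 3 falls among 21, with Crabp1, a retinoic acid carrier, at 1.605 and Rbp4, the retinol carrier of blood, at -1.55. Genes of the NRF2 and glutathione defence had 4 rises and 11 falls among 35; Nqo1, a quinone reductase, rose (log2 1.04 ± 0.18) while Hmox1, heme oxygenase, fell by 0.86. Growth factors of the EGF and FGF families had 6 rises and 9 falls among 29, steroid genes 3 (1 without siCEBPb replicate 3, siNS replicate 1 or siNS replicate 2) and 5 (3 without siNS replicate 3) among 19, and SUMO pathway genes 1 and 1 among 22 (the rise was 0 without siCEBPb replicate 1, siCEBPb replicate 3, siNS replicate 1 or siNS replicate 2, and 4 with limma voom). Of 28 tested genes that have been reported as C/EBPβ targets, 14 fell and 4 rose (median -0.43).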
